A study of Homo sapiens with 4 samples.

Results

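The genes described are 8 human growth genes, grouped as let-7 microRNA targets with long 3′ untranslated regions, a label not checked here by gene. They are the RNA-binding protein genes LIN28B, IGF2BP1, IGF2BP2 and IGF2BP3, the chromatin protein gene HMGA2, the cell cycle genes CCND2 and CDK6, and the transcription factor gene MYC. Each was read as a strand-specific window on hg19 that was set by coordinates and not by its reads. The windows held 852 of the 1749181 positions at which any library had a read. All 8 windows had reads in all 4 libraries. The genes were measured in HEK293 cells, an established human embryonic kidney line, in 4 groups of 1 library each. The first group received siRNA against CF Im 68 and the second siRNA against CstF-64. The third received a scrambled control siRNA, and the fourth received no siRNA. The 3 siRNA groups were harvested 3 days after siRNA was added. All 4 groups share the same cell line and medium, and no label names a separate culture, so no group has a replicate.

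The let-7 family pairs through its seed with sites in target mRNAs and lowers their output. LIN28B binds let-7 precursors and blocks their maturation, so that it is both a target of let-7 and its inhibitor. The IGF2BP proteins bind mRNAs and affect their stability and translation, HMGA2 bends AT-rich DNA in fetal and tumour cells, and cyclin D2 (CCND2) with CDK6 drives entry into the cell cycle. Cleavage factor I, to which CF Im 68 belongs, binds pre-mRNA on the 5′ side of the cut. CstF-64 carries the RNA-binding domain of the cleavage stimulation factor and contacts GU-rich sequence on the 3′ side. Where a transcript has several cleavage sites in its last exon, an upstream site gives a shorter 3′ untranslated region and can leave out microRNA sites. The study asked how depletion of either factor changes the choice of 3′ ends.

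The let-7 sequences are shown because these genes are grouped as let-7 targets. The RefSeq table (GRCh38.p14) held 9 mature 5p sequences from 12 let-7 genes, each of 22 nt, and all 9 had 1 seed, which is in capitals (bases 2 to 8). The sequence of let-7d was the only one of the 9 that did not begin with U. A selection of 4 of the 9 is shown.
hsa-let-7a-5p: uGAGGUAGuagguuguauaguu
hsa-let-7d-5p: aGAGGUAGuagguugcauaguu
hsa-let-7i-5p: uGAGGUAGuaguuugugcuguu
hsa-miR-98-5p: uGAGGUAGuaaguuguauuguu

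The siRNAs that define the depleted groups are shown as the labels give them, 21 nt each from 5′ to 3′. Capitals mark the bases that the labels specify, and nn stands for bases left unspecified.
CF Im 68 siRNA: nnGACCGAGAUUACAUGGAUA
CstF-64 siRNA: nnCCUGAAUGGGCGCGAAUUC
The labels state that the siRNA treatment was checked by Western blot, without giving its outcome. The RNA of the targeted genes, the marker genes of HEK293 cells, the other genes of the let-7 pathway and let-7 seed matches in the windows were not analysed here, because no hg19 genome or annotation was used.

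Libraries were made by A-seq, which reads the last bases before the poly(A) tail. A read thus marks the position of a cleaved and polyadenylated 3′ end. Totals were 12792623 reads with CF Im 68 siRNA, 7343112 with CstF-64 siRNA, 13443454 with control siRNA and 15806975 with no siRNA. The windows took 0.0681% of reads with CF Im 68 siRNA, 0.0406% with CstF-64 siRNA, 0.0616% with control siRNA and 0.0461% with no siRNA. Levels are given as reads per 1000000 library reads (RPM), and positions within 25 nt of a stronger position were joined to it as 1 site. Sites with a mean of at least 1 RPM over the libraries were kept, 22 in the windows of 33723 in all. Since the depleted libraries took part in that mean, a site could be kept through a rise after depletion. Oligo-dT can also prime on A-rich stretches inside a transcript, and such reads were not separated from true 3′ ends. Whether a site lies in an exon, an intron or a 3′ untranslated region was not analysed here.

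CCND2 had the largest difference in window level of the 8 genes, and it ran in opposite directions in the depleted libraries. Its level was 218 RPM with CF Im 68 siRNA, 50.1 with CstF-64 siRNA, 147 with control siRNA and 113 with no siRNA. The exact Poisson 95% intervals, which cover counting error only, were 210 to 226, 45.1 to 55.5, 141 to 154 and 107 to 118 RPM in that order, and none overlapped. The ratio of CF Im 68 siRNA to control siRNA was 1.48 (95% interval 1.4 to 1.57) and to no siRNA 1.94 (1.82 to 2.06). The ratio of CstF-64 siRNA to control siRNA was 0.34 (0.304 to 0.381) and to no siRNA 0.445 (0.397 to 0.498). A level is relative to all RNA of a library, and fewer cells of a kind and less RNA per cell cannot be told apart in such bulk samples.

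No window was at least 2-fold higher with CF Im 68 siRNA than in both control libraries, where 5.02% of 17878 units passed, and none was 2-fold lower, where 1.86% passed. A unit is a window or, elsewhere, all sites within 10 kb of a most used site. The fold was taken on RPM plus 1. With CstF-64 siRNA, 0 windows were 2-fold higher (1.82% of units) and 1, CCND2, was 2-fold lower (6.11% of units). Scaling touches this comparison: over all units the median log2 ratio of CstF-64 siRNA to control siRNA was -0.19 by library totals and -0.01 with TMM factors. The share of 2-fold units that were higher was 22.9% by library totals and 37.5% with TMM. The log2 ratio of CCND2 was -1.54 by library totals and -1.32 with TMM, past 2-fold in both.

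LIN28B stood at 61 RPM with CF Im 68 siRNA, 35.8 with CstF-64 siRNA, 71.3 with control siRNA and 53.8 with no siRNA. CstF-64 siRNA gave the lowest level, 0.502 of control siRNA (0.436 to 0.576) and 0.666 of no siRNA (0.578 to 0.766), while the CF Im 68 level lay between the 2 controls. IGF2BP3 was likewise lowest with CstF-64 siRNA, at 41.1 RPM, against 61.7 with CF Im 68 siRNA, 64.2 with control siRNA and 72.9 with no siRNA. HMGA2 ran the other way and was highest with CstF-64 siRNA, at 112 RPM, against 101 with CF Im 68 siRNA, 86.3 with control siRNA and 72.1 with no siRNA. With TMM factors the CstF-64 log2 ratio to control siRNA was -0.76 for LIN28B, -0.42 for IGF2BP3 and 0.59 for HMGA2, so that their directions held. MYC was lowest with CF Im 68 siRNA, at 41.6 RPM, against 49 with CstF-64 siRNA, 58.5 with control siRNA and 48.4 with no siRNA. Its ratio of CF Im 68 siRNA to control siRNA was 0.711 (0.636 to 0.795) and to no siRNA 0.859 (0.768 to 0.961). CDK6 was highest with CF Im 68 siRNA, at 29.4 RPM, against 17.2 with CstF-64 siRNA, 21.4 with control siRNA and 15.6 with no siRNA.

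In IGF2BP1 and IGF2BP2 the control libraries differed from each other by more than either depleted library differed from control siRNA. IGF2BP1 had 149 RPM with CF Im 68 siRNA, 82.8 with CstF-64 siRNA, 150 with control siRNA and 76.5 with no siRNA. IGF2BP2 had 18.8 RPM with CF Im 68 siRNA, 17.7 with CstF-64 siRNA, 17.2 with control siRNA and 9.36 with no siRNA. The ratio of control siRNA to no siRNA was 1.96 (1.83 to 2.11) for IGF2BP1 and 1.84 (1.49 to 2.27) for IGF2BP2. On RPM plus 1 none of the 8 windows was 2-fold higher with control siRNA than with no siRNA, where 5.20% of units were. The median log2 ratio of control siRNA to no siRNA was 0.39 over the 8 windows, 7 of them above 0, and 0.11 over all units. The 2 control libraries thus lay up to 1.96-fold apart for these genes.

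**Figure D1:**
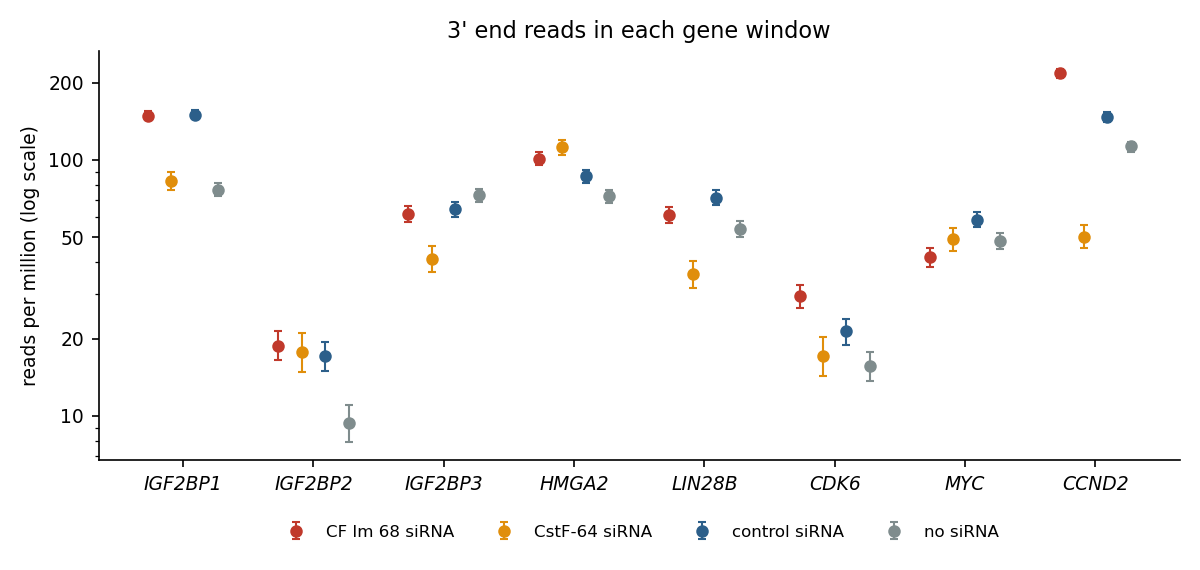
Level of each gene window in RPM on a log axis, 1 point per library with its exact Poisson 95% interval, with the CF Im 68 siRNA library leftmost in each gene. CCND2 lies at 218 RPM with CF Im 68 siRNA and 50.1 with CstF-64 siRNA, while IGF2BP1 and IGF2BP2 are lower with no siRNA than with control siRNA.

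The choice of 3′ ends was measured in a pair of ways. The proximal share is the percentage of reads at the 5′ site among the 2 most used sites of a unit, where each holds at least 5% of the unit's reads. The upstream share is the percentage of reads 101 to 10000 nt upstream of the most used (main) site, among these and the reads within 100 nt of it, and was added after the data had been seen. It needs no choice of an upstream site, and it could be computed for all 8 genes, against 6 for the proximal share. Reads of 2 libraries were compared by Fisher's exact test (two-sided), adjusted by Benjamini-Hochberg over all units, which compares those libraries and not the conditions. A call needed an adjusted p under 0.05 against control siRNA and a difference of at least 10 points in 1 direction from both controls.

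A larger share of reads ended upstream of the main site with CF Im 68 siRNA than with control siRNA in 7 of the 8 genes, with a median difference from control siRNA of 5.87 points over the 8 and 0.435 points over all 8734 units, of which 59.4% were above 0. The call at 10 points was met by 2 of the 8 genes, LIN28B and CCND2, and by 15.8% of units. None was called smaller, as were 0.779% of units. Without the 10-point minimum, requiring an adjusted p below 0.05 against each control in 1 direction, 6 of the 8 were larger with CF Im 68 siRNA, against 23.6% of units. This second rule was also added after the data had been seen, and it depends on depth: the median number of reads behind the share was 760 for the 8 genes and 441 for all units with CF Im 68 siRNA, and 326 against 197 with CstF-64 siRNA. One gene, CDK6, was smaller by this rule, as were 2.56% of units. By the proximal share 2 of 6 genes, LIN28B and CCND2, were called proximal and 24.2% of units were, so that the count of 2 is close to the background. Neither pair exists when sites are chosen on the control libraries alone, so this count gives no support of its own. None of the 6 was called distal, against 2.63% of units.

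**Figure D2:**
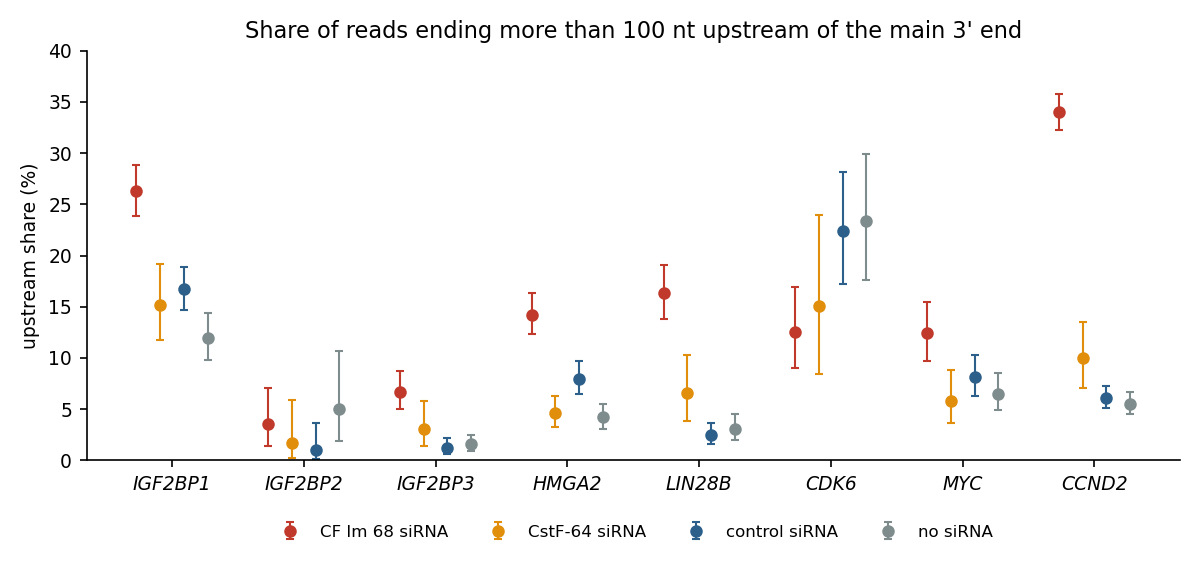
Upstream share of each gene in percent, 1 point per library with its exact Clopper-Pearson 95% interval, with the CF Im 68 siRNA library leftmost in each gene. The CF Im 68 intervals of CCND2 (34%), IGF2BP1 (26.3%), LIN28B (16.3%) and HMGA2 (14.2%) lie above those of all other libraries, while the CF Im 68 point of CDK6 is the lowest of its 4, at 12.5%.

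**Figure D3:**
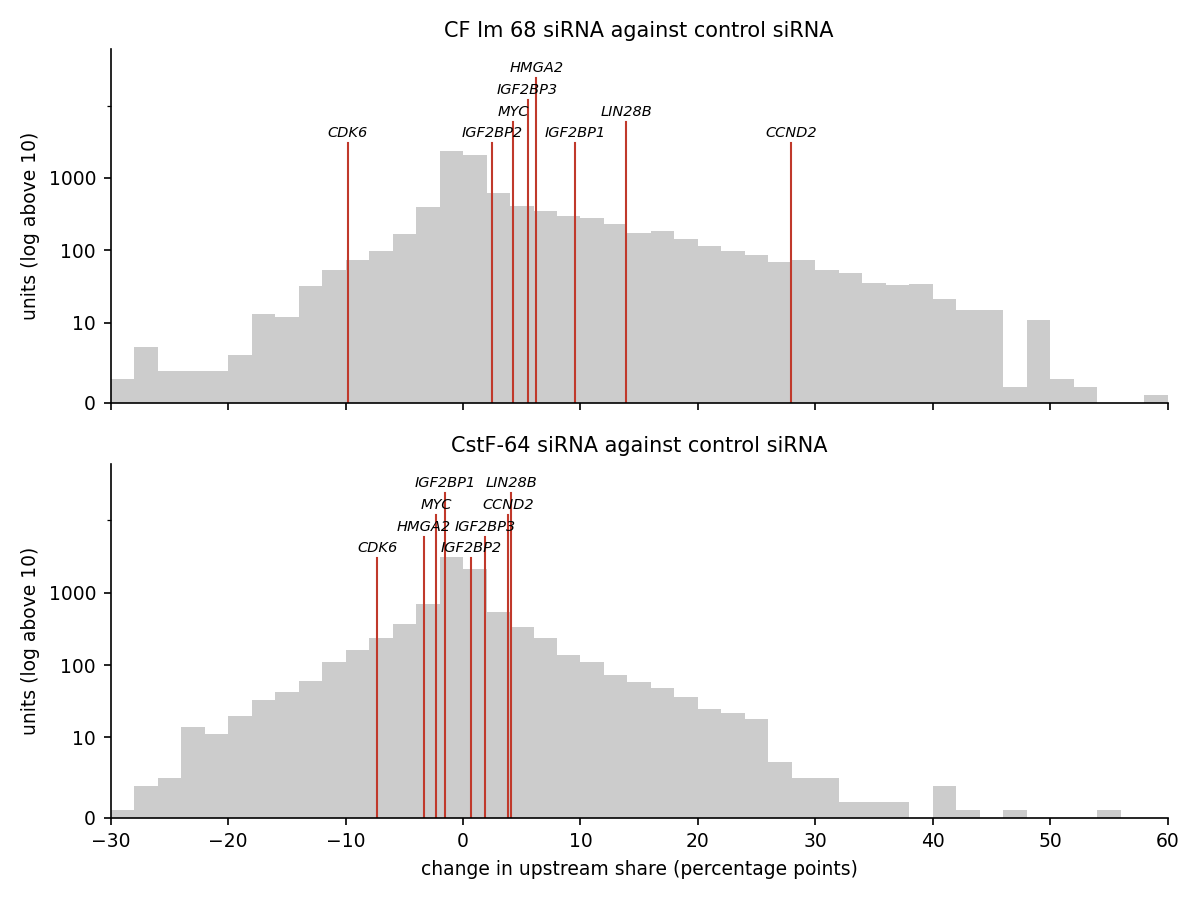
Change in upstream share against control siRNA in percentage points for all units (grey bars, counts on a scale that is linear up to 10 and logarithmic above) and for the 8 genes (red lines), with CF Im 68 siRNA above and CstF-64 siRNA below; the axis is limited to -30 to 60 points and the heights of the red lines carry no value. CCND2 at 27.9 and LIN28B at 13.9 points lie on the right shoulder of the CF Im 68 bars, CDK6 at -9.82 on the left, and the 8 genes lie between -7.31 and 4.1 points among the CstF-64 bars.

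CCND2 encodes cyclin D2, the regulatory partner of CDK4 and CDK6 in early cell cycle. Its window was chromosome 12, 4382500 to 4415500, plus strand, and a pair of listed sites (at least 10 reads and 1% of window reads) held 97.8% of reads. The site at 4409378 lies 5139 nt upstream of the main site at 4414517. The upstream site had 889 reads with CF Im 68 siRNA, 32 with CstF-64 siRNA, 91 with control siRNA and 85 with no siRNA, or 69.5, 4.36, 6.77 and 5.38 RPM in that order. The main site had 143 RPM with CF Im 68 siRNA, 44.3 with CstF-64 siRNA, 137 with control siRNA and 106 with no siRNA. With CF Im 68 siRNA the library was thus far above the others at the upstream site and close to control siRNA at the main site. The ratio of CF Im 68 siRNA to control siRNA was 10.3 (8.27 to 12.9) at the upstream site and 1.04 (0.979 to 1.12) at the main site, and to no siRNA 12.9 (10.3 to 16.3) and 1.35.

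The proximal share of CCND2 was 32.7% (30.9 to 34.5) with CF Im 68 siRNA, 8.96% (6.21 to 12.4) with CstF-64 siRNA, 4.71% (3.81 to 5.75) with control siRNA and 4.84% (3.88 to 5.95) with no siRNA. The difference of CF Im 68 siRNA was 28 points against control siRNA (Fisher's exact test, adjusted p = 7.69e-134) and 27.9 points against no siRNA, while the controls differed by -0.128 points. The upstream site is under 5% of reads in the controls, so this pair does not exist when sites are chosen on the control libraries alone. The upstream share does not need that choice of site but does need a reach past 5139 nt, and it was 34% with CF Im 68 siRNA, 9.97% with CstF-64 siRNA, 6.12% with control siRNA and 5.53% with no siRNA. Its difference from control siRNA was 27.9 points (adjusted p = 2.86e-126), and 4.03% of 8734 units had a difference at least as large. With a reach of 5000 or 3000 nt, which leaves out the upstream site, the difference was -0.265 or -0.162 points and no call was made. A second kept site at 4409459 had 35 reads with CF Im 68 siRNA, 3 with CstF-64 siRNA, 10 with control siRNA and 6 with no siRNA.

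With CstF-64 siRNA it was the main site of CCND2 that differed most. Its ratio to control siRNA was 0.323 (0.286 to 0.364) at the main site and 0.644 (0.416 to 0.973) at the upstream site. The proximal share was higher by 4.25 points than with control siRNA (adjusted p = 0.0104) and by 4.13 points than with no siRNA, which is under the 10 points of a call. The upstream share was higher by 3.86 points than with control siRNA (Fisher's exact test, adjusted p = 0.0947). It was higher by 4.44 points than with no siRNA (adjusted p = 0.0183), so only the latter comparison passed the test. Between the depleted libraries the proximal share was higher by 23.7 points with CF Im 68 siRNA than with CstF-64 siRNA (adjusted p = 2.51e-22), a call made for 1 of 6 genes and 24.9% of units.

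LIN28B, the let-7 inhibitor, also had a higher upstream site with CF Im 68 siRNA, at lower counts. Unlike in CCND2, its main site was lower than with control siRNA. Its window was chromosome 6, 105404500 to 105532500, plus strand, with a site at 105528267 that lies 2940 nt upstream of the main site at 105531207. The upstream site had 93 reads with CF Im 68 siRNA, 11 with CstF-64 siRNA, 16 with control siRNA and 15 with no siRNA. The main site had 636 reads with CF Im 68 siRNA, 242 with CstF-64 siRNA, 910 with control siRNA and 812 with no siRNA. In RPM, the CF Im 68 library was 6.11-fold (3.57 to 11.1) above control siRNA at the upstream site and 0.734 of it at the main site. Against no siRNA the ratios were 7.66 (4.41 to 14.2) at the upstream site and 0.968 at the main site.

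The upstream share of LIN28B was 16.3% (13.8 to 19.1) with CF Im 68 siRNA, 6.56% (3.87 to 10.3) with CstF-64 siRNA, 2.47% (1.57 to 3.68) with control siRNA and 3.1% (2.04 to 4.51) with no siRNA. Its interval with CF Im 68 siRNA overlapped none of the others. The difference was 13.9 points against control siRNA (Fisher's exact test, adjusted p = 2.17e-23) and 13.2 against no siRNA (adjusted p = 2.10e-19), and 14.2% of units had a difference from control siRNA at least as large. The proximal share gave 12.8%, 4.35%, 1.73% and 1.81% in the same order of libraries, 11 points above control siRNA (adjusted p = 6.01e-19). As in CCND2, this pair does not exist when sites are chosen on the controls alone. With CstF-64 siRNA the upstream share was 4.1 points above control siRNA (adjusted p = 0.0326) and 3.46 above no siRNA (adjusted p = 0.0818).

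The read-weighted mean distance of 3′ ends was taken over sites with at least 5% of a unit's reads, from the most 5′ of these. The weaker upstream sites of HMGA2 and IGF2BP1 do not enter it. Those of CCND2 and LIN28B pass the 5% only with the CF Im 68 library in the mean, and with sites chosen on the controls alone neither gene has a value, so the distances restate the pairs above in nucleotides and add no support. In CCND2 it was 3459 nt with CF Im 68 siRNA, 4678 with CstF-64 siRNA, 4897 with control siRNA and 4890 with no siRNA. In LIN28B it was 2565 nt with CF Im 68 siRNA, 2812 with CstF-64 siRNA, 2889 with control siRNA and 2887 with no siRNA. A unit was counted as shorter at 200 nt below both controls, which 2 of 6 genes met with CF Im 68 siRNA, as did 25.3% of 4983 units. With CstF-64 siRNA, 1 of 6 genes met it, CCND2 with differences of -219 nt from control siRNA and -212 nt from no siRNA, as did 11.5% of units. The first of these was -197 nt and no longer counted when positions were joined over 10 nt in place of 25. In CDK6 the distance with CF Im 68 siRNA differed from control siRNA by 0.153 nt, but by 331 nt, and counted as longer, when sites from a mean of 0.2 RPM were taken in.

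**Figure D4:**
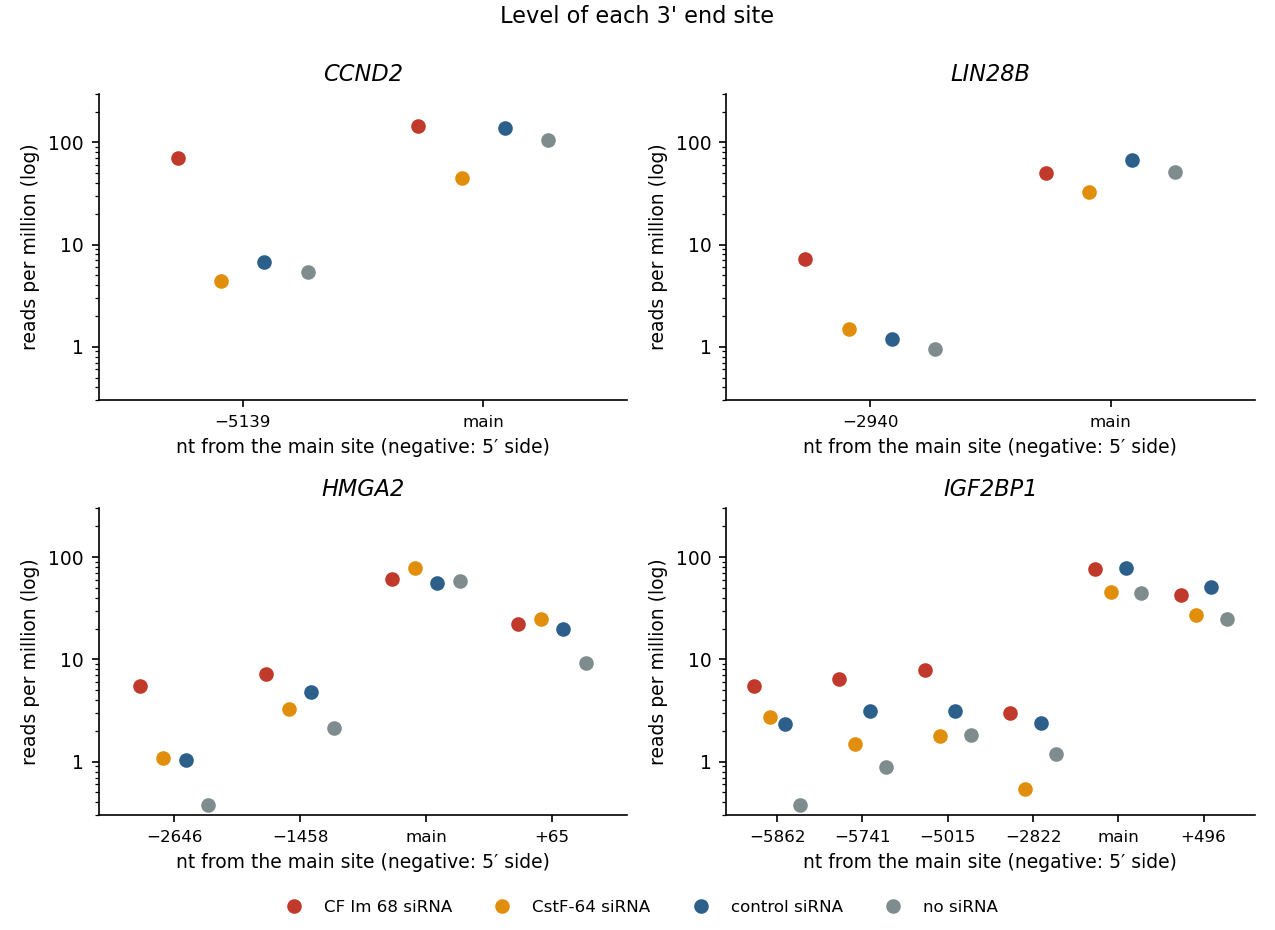
Level of each listed 3′ end site of CCND2, LIN28B, HMGA2 and IGF2BP1 in RPM on a log axis, 1 point per library with the CF Im 68 siRNA library leftmost at each site; sites stand in transcript order, with distances in nt from the main site that are not drawn to scale. The CF Im 68 point is above all others at the upstream sites of CCND2 (69.5 RPM) and LIN28B (7.27 RPM), but not at the main sites of LIN28B and IGF2BP1.

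HMGA2 encodes an architectural chromatin protein and is known as a let-7 target whose 3′ untranslated region is often lost in tumours. Its window was chromosome 12, 66218000 to 66361000, plus strand, with 4 listed sites. The site at 66357353, which lies 2646 nt upstream of the main site at 66359999, had 70 reads with CF Im 68 siRNA, 8 with CstF-64 siRNA, 14 with control siRNA and 6 with no siRNA. It was high in the CF Im 68 library alone, 5.25-fold (2.93 to 10.1) above control siRNA and 14.4-fold (6.3 to 40.6) above no siRNA. The site at 66358541 had 92 reads with CF Im 68 siRNA, 24 with CstF-64 siRNA, 65 with control siRNA and 34 with no siRNA. Here the CF Im 68 and control siRNA libraries lay closer together, with a ratio of 1.49 (1.07 to 2.08).

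The upstream share of HMGA2 was 14.2% (12.3 to 16.3) with CF Im 68 siRNA, 4.64% (3.29 to 6.33) with CstF-64 siRNA, 7.96% (6.44 to 9.72) with control siRNA and 4.2% (3.1 to 5.55) with no siRNA. With CF Im 68 siRNA it was 6.23 points above control siRNA (Fisher's exact test, adjusted p = 1.04e-05) and 9.99 points above no siRNA (adjusted p = 2.52e-16), so it met the rule of any size and not the 10-point call. The controls themselves differed by 3.76 points (adjusted p = 0.00282). The pair of most used sites of HMGA2 lies only 65 nt apart, at 66359999 and 66360064, and behaved differently. Its proximal share was 73.6% with CF Im 68 siRNA, 76.2% with CstF-64 siRNA, 73.8% with control siRNA and 86.4% with no siRNA. The 3 siRNA libraries lay at 73.6 to 76.2% and the no siRNA library stood apart: control siRNA differed from it by -12.5 points (adjusted p = 9.79e-12), a distal call between controls made for 1 of 6 genes and 11.1% of units.

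IGF2BP1, an oncofetal mRNA-binding protein, had the most kept upstream sites of the 8 genes, 4. Its window was chromosome 17, 47074500 to 47134500, plus strand. The main site at 47133010 had 970 reads with CF Im 68 siRNA, 334 with CstF-64 siRNA, 1050 with control siRNA and 698 with no siRNA. A second strong site 496 nt downstream had 547 reads with CF Im 68 siRNA, 198 with CstF-64 siRNA, 691 with control siRNA and 389 with no siRNA. The proximal share of this pair was 63.9% with CF Im 68 siRNA, 62.8% with CstF-64 siRNA, 60.3% with control siRNA and 64.2% with no siRNA. The share with CF Im 68 siRNA differed by 3.63 points from control siRNA (Fisher's exact test, adjusted p = 0.0639) and by -0.271 from no siRNA.

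The 4 upstream sites of IGF2BP1 lie 2822 to 5862 nt from the main site, and each was highest with CF Im 68 siRNA. The site 2822 nt upstream was barely so, at 2.97 RPM with CF Im 68 siRNA and 2.38 with control siRNA. Its ratio was 1.25 (0.759 to 2.06), an interval that takes in equal levels. At the other upstream sites the ratio to control siRNA was 2.08 to 2.55. The site at 47127995 had 102 reads with CF Im 68 siRNA, 13 with CstF-64 siRNA, 42 with control siRNA and 29 with no siRNA, or 7.97, 1.77, 3.12 and 1.83 RPM in that order. The site at 47127148 had 5.55 RPM with CF Im 68 siRNA, 2.72 with CstF-64 siRNA, 2.31 with control siRNA and 0.38 with no siRNA. The upstream share was 26.3% (23.9 to 28.8) with CF Im 68 siRNA, 15.2% (11.8 to 19.2) with CstF-64 siRNA, 16.7% (14.7 to 18.9) with control siRNA and 12% (9.8 to 14.4) with no siRNA. With CF Im 68 siRNA it was 9.56 points above control siRNA (adjusted p = 2.98e-08) and 14.3 above no siRNA (adjusted p = 1.08e-14), just under the call. It was 0.306 points against control siRNA with a reach of 5000 nt and 0.487 with 3000 nt. These reaches leave out by construction the peaks of the sites 5015, 5741 and 5862 nt upstream. At the full reach the difference became a call with single-read positions dropped (10.2) and with reads thinned to the smallest library (10.1). It also became a call with no siRNA as the only control. Against CstF-64 siRNA the difference was 11.1 points (adjusted p = 3.59e-05), and IGF2BP1 and CCND2 were the 2 of 8 genes called in that comparison, as were 16.1% of units. The controls differed by 4.75 points (adjusted p = 0.025).

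IGF2BP3, a paralog of IGF2BP1, ended mostly at 1 site in its window (chromosome 7, 23349000 to 23510500, minus strand). That site, at 23349829, took 90% of window reads with CF Im 68 siRNA, 93.4% with CstF-64 siRNA, 95.1% with control siRNA and 97% with no siRNA. A minor site 1151 nt upstream had 34 reads with CF Im 68 siRNA, 7 with CstF-64 siRNA, 4 with control siRNA and 10 with no siRNA. The upstream share was 6.7% with CF Im 68 siRNA, 3.09% with CstF-64 siRNA, 1.2% with control siRNA and 1.58% with no siRNA. It was 5.5 points above control siRNA (Fisher's exact test, adjusted p = 3.91e-08) and 5.12 above no siRNA (adjusted p = 6.44e-08). No proximal share could be given, since no second site held 5% of reads.

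IGF2BP2, the third paralog, had the fewest reads of the 8 genes, 750 over the 4 libraries, in its window (chromosome 3, 185361000 to 185543000, minus strand). Its main site at 185361531 had 192 reads with CF Im 68 siRNA, 117 with CstF-64 siRNA, 195 with control siRNA and 112 with no siRNA. The upstream share was 3.52% (1.43 to 7.11) with CF Im 68 siRNA, 1.68% (0.204 to 5.94) with CstF-64 siRNA, 1.02% (0.123 to 3.62) with control siRNA and 5.04% (1.87 to 10.7) with no siRNA. These intervals all overlap, and CF Im 68 siRNA differed by 2.5 points from control siRNA (Fisher's exact test, adjusted p = 0.338) and by -1.52 points from no siRNA (adjusted p = 0.774). Neither difference passed the test. The shares rest on 199 reads with CF Im 68 siRNA, 119 with CstF-64 siRNA, 197 with control siRNA and 119 with no siRNA. How small a difference could be detected at this depth was not tested. The 3 sites 28602 to 31296 nt upstream had 1 to 13 reads in any library.

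CDK6, the kinase partner of the D cyclins, was the exception in direction. Its window was chromosome 7, 92233500 to 92466500, minus strand, and 8 listed sites held 83.5% of its reads, the lowest share among the genes. The main site at 92234340 had 250 reads with CF Im 68 siRNA, 73 with CstF-64 siRNA, 172 with control siRNA and 144 with no siRNA. The site at 92240781, which lies 6441 nt upstream, had 6 reads with CF Im 68 siRNA, 9 with CstF-64 siRNA, 15 with control siRNA and 11 with no siRNA. The site 4845 nt upstream had 3 reads with CF Im 68 siRNA, 1 with CstF-64 siRNA, 6 with control siRNA and 10 with no siRNA. The site 8878 nt upstream had 5 reads with CF Im 68 siRNA, 1 with CstF-64 siRNA, 6 with control siRNA and 4 with no siRNA. The site 9839 nt upstream had 8 reads with CF Im 68 siRNA, 0 with CstF-64 siRNA, 0 with control siRNA and 3 with no siRNA. In RPM the CF Im 68 library was the highest of the 4 at the main site, the lowest at the site 6441 nt upstream and the highest at the site 9839 nt upstream, so the weak upstream sites did not share 1 direction.

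The upstream share of CDK6 was 12.5% (8.99 to 16.9) with CF Im 68 siRNA, 15.1% (8.48 to 24) with CstF-64 siRNA, 22.4% (17.2 to 28.2) with control siRNA and 23.4% (17.6 to 29.9) with no siRNA. CF Im 68 siRNA differed by -9.82 points from control siRNA (Fisher's exact test, adjusted p = 0.0124) and by -10.8 points from no siRNA (adjusted p = 0.00678). With a reach of 5000 nt in place of 10000 the difference from control siRNA was -3.66 points, and with 3000 nt it was -0.932. Both reaches leave out by construction the sites 6441, 8878 and 9839 nt upstream, and 3000 nt also leaves out the site 4845 nt upstream. Of all units, 98.3% had a difference from control siRNA at least as high as this one. With CF Im 68 siRNA the share rests on 37 upstream reads, spread over several weak sites. The pair of most used sites, 101 nt apart, had proximal shares of 89% with CF Im 68 siRNA, 83% with CstF-64 siRNA, 89.1% with control siRNA and 86.2% with no siRNA, and no comparison of these passed the test.

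MYC, whose window is the shortest of the 8, had 2 listed sites 159 nt apart on chromosome 8. The window ran from 128748000 to 128754500 on the plus strand. The upstream site at 128753520 had 65 reads with CF Im 68 siRNA, 21 with CstF-64 siRNA, 58 with control siRNA and 43 with no siRNA. The main site at 128753679 had 36.4 RPM with CF Im 68 siRNA, 46.2 with CstF-64 siRNA, 53.7 with control siRNA and 45.3 with no siRNA. It was the main site that was lower with CF Im 68 siRNA, at 0.678 of control siRNA (0.602 to 0.763), while the ratio at the upstream site was 1.18 (0.814 to 1.71). The proximal share was 12.2% with CF Im 68 siRNA, 5.83% with CstF-64 siRNA, 7.44% with control siRNA and 5.67% with no siRNA. With CF Im 68 siRNA it was 4.81 points above control siRNA (Fisher's exact test, adjusted p = 0.00851), which is under the 10 points of a call. The upstream share, which rests on the same site, was 12.4% with CF Im 68 siRNA, 5.83% with CstF-64 siRNA, 8.14% with control siRNA and 6.53% with no siRNA. Its difference was 4.26 points from control siRNA (adjusted p = 0.0421) and 5.88 from no siRNA (adjusted p = 0.00128).

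The depleted libraries were also set against each other directly. The upstream share was higher with CF Im 68 siRNA than with CstF-64 siRNA by 24 points in CCND2 (Fisher's exact test, adjusted p = 4.53e-22), by 9.75 in LIN28B (adjusted p = 0.000308), by 9.56 in HMGA2 (adjusted p = 1.77e-11) and by 6.57 in MYC (adjusted p = 0.00625). The difference was 3.61 points in IGF2BP3 (adjusted p = 0.0884), 1.84 in IGF2BP2 (adjusted p = 0.81) and -2.51 in CDK6 (adjusted p = 0.891), none of which passed the test. The median was 8.07 points over the 8 genes and 0.708 over all units.

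Counted by single sites, 6 of the 22 kept sites of these genes were at least 2-fold higher with CF Im 68 siRNA than in both controls, against 8.57% of 33723 sites. They were the upstream sites of CCND2 at 4409378 and 4409459, HMGA2 at 66357353, IGF2BP1 at 47127995, LIN28B at 105528267 and IGF2BP3 at 23350980. All 6 lie upstream of the main site of their gene. This count was added after the data had been seen. The sites at 4409459, 66357353 and 23350980 had a mean under 1 RPM in the controls and were kept through their level in the CF Im 68 library. Those at 4409378, 47127995 and 105528267 reached that minimum in the controls alone. Since it mixes both kinds of site, the count gives no support of its own. With CstF-64 siRNA, 1 of the 22 sites, the main site of CCND2, was 2-fold lower, against 5.07% of sites.

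With CstF-64 siRNA no gene was called by either share. None of 6 genes was called proximal, against 8.20% of units, and none distal, against 3.59%. The upstream share was called larger at 10 points in 0 of 8 genes, against 2.66% of units, and smaller in 0, against 0.973%. Without the minimum of points the counts were 0 larger, against 4.0% of units, and 0 smaller, against 2.64%. The smallest adjusted p against control siRNA over the 8 genes and both shares was 0.0104, for the proximal share of CCND2. The CstF-64 library had the fewest reads, 93 to 798 behind the upstream share of a gene. With no siRNA as the only control, the proximal share of HMGA2 was called distal in both depleted libraries, at -12.8 points with CF Im 68 siRNA and -10.2 with CstF-64 siRNA. The median difference in upstream share from control siRNA was -0.419 points over the 8 genes and -0.139 over all units.

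At the main sites of IGF2BP1 and MYC the spread of cleavage positions differed more between the genes than between libraries. At the main site of IGF2BP1, 96.2% of reads with CF Im 68 siRNA, 97.9% with CstF-64 siRNA, 95.6% with control siRNA and 95.4% with no siRNA fell on a single base. At the main site of MYC the most used base took 38.4% with CF Im 68 siRNA, 36.3% with CstF-64 siRNA, 33.7% with control siRNA and 37.3% with no siRNA. That base was 128753668 with no siRNA and 128753679 in the other libraries. At the main site of IGF2BP3 it was 23349835 with CstF-64 siRNA and 23349829 in the other libraries. In CCND2 the main site was sharp, with 83.3%, 88%, 74.5% and 75.7% in the same order of libraries, and the upstream site was broad, with 30%, 31.2%, 35.2% and 36.5%. The median over all kept sites with at least 20 reads was 66.7% with CF Im 68 siRNA, 68.7% with CstF-64 siRNA, 65% with control siRNA and 64.4% with no siRNA. The upstream ends of CCND2 with CF Im 68 siRNA thus peaked at the same base, 4409378, as in the other libraries.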

How the data were processed

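Per the labels' protocols, oligo-dT beads captured poly(A) RNA, which was partly digested with RNase I and reverse transcribed from an anchored oligo-dT primer. The authors deposited raw read counts per 3′ end position and strand, without normalization; the build, per the submitters' processing notes, is hg19 (GRCh37). The aligner and filters are not given in the sources used here. No molecular identifiers are named, so repeated copies of a molecule could not be told from separate molecules. Intervals and tests treat each read as independent, cover counting error only, and may be too narrow where copies are present.

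Positions were joined within 25 nt. Sites needed a mean of 1 RPM on chromosomes 1 to 22 and X. Shares needed 50 reads in every library and carry exact Clopper-Pearson 95% intervals. Levels used library totals and a pseudocount of 1 RPM. With 1 library per group no edgeR test was possible, and edgeR 4.0.16 (R 4.3.3) gave only TMM factors. Fisher's exact tests (SciPy 1.17.1) were adjusted over all units. The calls were also tried on simulated reads at the sites already chosen. That simulation held counting error only, so it cannot speak to variation between libraries or to the choice of sites. All 8 genes are named. The genes, lists and measures were chosen with earlier results of these data known. The closing section gives the alternatives tried: scaling, pseudocount, cluster radius, site minimum, read minimum, control library, locus, single-read positions and thinning.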

Additional observations from a re-analysis of the deposited data

How the results depend on the processing

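No paired analysis was possible because each group has 1 library. The CCND2 pair kept its call in 12 of 12 alternatives that gave a value (27.1 to 28.2 points), the LIN28B pair in 8 of 8 (10.9 to 11) and the LIN28B upstream share in 10 of 10 (11.2 to 13.9). No value came from either pair with sites chosen on the controls, nor from LIN28B with a radius of 10 nt, a site share of 10%, single-read positions dropped or thinned reads. Settings without a value are not in these counts. The read minimum, the locus and the choice of the outermost sites left both pairs unchanged, so these settings do not test them. A reach of 5000 or 3000 nt leaves out the CCND2 site 5139 nt away by construction: the upstream share differed by -0.265 and -0.162 points with CF Im 68 siRNA and by -0.448 and -0.271 with CstF-64 siRNA. The same reaches also leave out upstream sites of IGF2BP1 and CDK6 by construction. They gave 0.306 and 0.487 for IGF2BP1 and -3.66 and -0.932 for CDK6 with CF Im 68 siRNA. A near width of 200 nt takes in the MYC site 159 nt away and gave -0.448. IGF2BP1 was called in upstream share at 14.3 points with no siRNA as the only control, 10.2 with single-read positions dropped and 10.1 with thinned reads. CDK6 was called smaller at -10.8 with no siRNA only and -10.7 with a near width of 50 nt.

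With no siRNA as the only control, directions turned for the CF Im 68 proximal share of IGF2BP1 (-0.271 points) and CDK6 (2.74), the CF Im 68 upstream share of IGF2BP2 (-1.52), the CstF-64 proximal share of IGF2BP1 (-1.43), HMGA2 (-10.2) and MYC (0.168), and the CstF-64 upstream share of IGF2BP1 (3.25), IGF2BP2 (-3.36) and HMGA2 (0.436). The HMGA2 pair was called distal there in both depleted libraries (CF Im 68 -12.8), and a radius of 10 nt gave 0.147. A site minimum of 0.2 RPM moved the CDK6 mean end distance to 331 nt with CF Im 68 siRNA, a longer call, and to -128 nt with CstF-64 siRNA, no call. The causes were not tested.

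Over all units, CF Im 68 distal calls numbered 126, and 77 with 100 pair reads, 207 with control siRNA only and 426 with no siRNA only. Smaller CF Im 68 upstream shares numbered 68, and 124 with control siRNA only, 229 with no siRNA only, 43 and 31 with a reach of 5000 and 3000 nt, and 42 with 100 reads. CF Im 68 totals were 2-fold higher in 897 units, and in 411 with a pseudocount of 5 RPM and 475 with 200 reads; lower in 332, and in 709 and 70 with pseudocounts of 0.1 and 5 RPM. CstF-64 proximal calls numbered 393 and distal 172, and 911 and 642 with no siRNA only. Larger CstF-64 upstream shares numbered 232, and 561 with no siRNA only and 153 with a reach of 3000 nt; smaller ones 85, and 154 with control siRNA only, 381 with no siRNA only and 48 with a reach of 3000 nt. CstF-64 totals were higher in 325, and in 512 with median-ratio size factors, 525 and 177 with pseudocounts of 0.1 and 5 RPM and 129 with 200 reads; lower in 1092, and in 1991 and 306 with those pseudocounts. The CCND2 log2 ratio with CstF-64 siRNA was -1.32 with TMM and -1.29 with size factors. Depth limits IGF2BP2 and CDK6 most.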
